A study of Homo sapiens with 12 samples.

Results

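The nuclear-encoded subunits of respiratory chain complexes I, II and III and of the ATP synthase, complex V, were described across 2 leukaemia cell lines with and without obatoclax. Members were the genes whose symbols begin with NDUFA, NDUFB, NDUFC, NDUFS, NDUFV, SDHA, SDHB, SDHC, SDHD, UQCR or ATP5. Assembly factors, pseudogenes and symbols holding a hyphen, such as those of antisense, divergent or read-through transcripts, were left out. This gave 60 of the 19775 genes that had a probe set with exactly 1 gene symbol: 33 of complex I, 3 of complex II, 6 of complex III and 18 of complex V. Subunits without such a probe set, SDHB among them, and subunits with other symbols were not analysed here. By its symbol the inhibitor ATP5IF1 was counted with complex V. For 38 of the 60 genes the array held more than 1 probe set, and the values given are those of the probe set with the greatest 12-array mean.

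The lines were SEM-K2 and RS4:11, established lines of B-lineage acute lymphoblastic leukaemia that carry a KMT2A-AFF1 (MLL-AF4) fusion. Obatoclax is a small molecule made to block the antiapoptotic proteins of the BCL2 family. Each line was cultured for 6 h with obatoclax at its 72 h EC50, the concentration with the median effect in a 72 h assay, with obatoclax at 3 times that concentration (3xEC50), or with vehicle alone. Each of the 6 line-by-dose groups had 2 replicates, so 12 Affymetrix U133 Plus 2 arrays were compared. The sources used here give no concentrations and do not say whether both lines received equal ones. Each line derives from 1 leukaemia.

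Complexes I and II pass electrons from NADH and from succinate to ubiquinone, complex III passes them on to cytochrome c, and complex V uses the proton gradient that the chain builds to make ATP. Most subunits are encoded in the nucleus and imported into mitochondria, while a few core subunits of complexes I, III and V come from mitochondrial DNA. In leukaemia cells the chain supplies ATP and renews the electron acceptors that nucleotide synthesis needs, and BCL2 family proteins act at the outer mitochondrial membrane.

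Values are on the log2 scale of the deposited GCRMA values, where a difference of 1 is a doubling. They are signals of probe sets, so levels are compared between arrays for 1 gene and never between genes. All 60 members were among the 10561 genes tested, and 59 lay above 7 on every array. The exception was ATP5MF, the f subunit of complex V, whose probe set averaged 4.67, close to the floor of 4 used for testing. B lineage markers were checked first: 7 of 9 B cell precursor markers measured lay above the floor on all 6 SEM-K2 arrays and 9 of 9 on all 6 RS4:11 arrays, BLNK lying below it on all SEM-K2 arrays. The T cell genes CD3D, CD3E, CD3G and CD2, the myeloid genes LYZ, MPO, CD14, S100A8 and S100A9, and HBB, PF4 and EPCAM lay below the floor on all 12 arrays, while NKG7, CSF1R, ITGA2B, COL1A1 and KRT8 lay above it. Replicate arrays correlated at 0.977 to 0.991 across genes. SEM-K2 3xEC50 replicate 2 stood apart in RNA quality: its 3′ minus 5′ signal of ACTB was 1.97, against 0.87 to 1.23 on the other 11 arrays, and that of GAPDH was 0.61, against 0.08 to 0.30. Nothing in the labels says that replicates were grown apart, so the p-values rest on a spread between samples that may be technical.

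**Figure D1:**
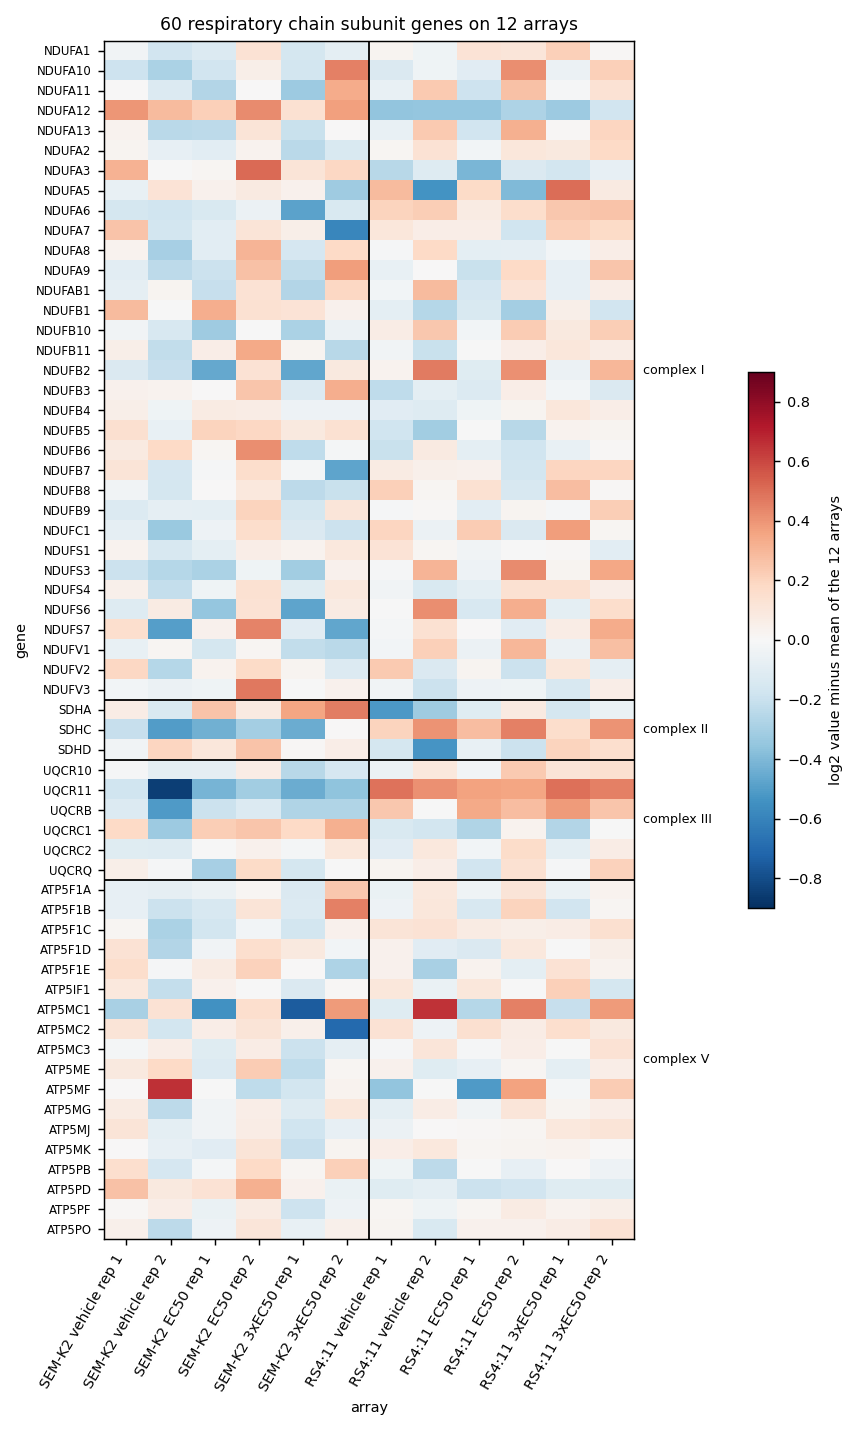
Each cell is the log2 value of 1 gene on 1 array minus that gene's mean over the 12 arrays, with genes in rows grouped by complex and arrays in columns, SEM-K2 left of RS4:11. The strongest contrasts run between the lines, for NDUFA12, SDHC, UQCR11 and UQCRB, and between replicates, for ATP5MC1, whose replicate 2 arrays lie above its replicate 1 arrays throughout.

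Obatoclax left the 60 subunit genes without a called change at either dose in either line. A gene was called at a Benjamini-Hochberg adjusted p under 0.05 over all 10561 genes in limma. In SEM-K2 at 3xEC50, 0 of 60 members were called, against 0.824% of all genes tested, and 1 member had an unadjusted p under 0.05. In SEM-K2 at the EC50, 0 members were called, against 0.17% of all genes, and 0 had an unadjusted p under 0.05. In RS4:11 at 3xEC50 and at the EC50, 0 members were called in limma and 1 at each dose had an unadjusted p under 0.05, while 0.0% of all genes were called at each dose. These calls among all genes are rare, so a count of 0 among 60 members lies near the background.

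The 95% interval of the change lay inside a 2-fold rise and a 2-fold fall for 58 of 60 members in SEM-K2 at each dose, for 58 in RS4:11 at 3xEC50 and for 59 in RS4:11 at the EC50. The estimated change was under 0.5 in size for 60 members in SEM-K2 at each dose, for 59 in RS4:11 at 3xEC50 and for 60 at the EC50. In SEM-K2 the members' median change was 0.08 at the EC50 and -0.02 at 3xEC50, beside 0.05 and 0.06 for all genes tested. In RS4:11 it was 0.01 at the EC50 and 0.06 at 3xEC50, beside 0.02 and 0.02 for all genes. The median size of the change, whatever its sign, was 0.09 at the EC50 and 0.11 at 3xEC50 for members in SEM-K2, beside 0.15 and 0.19 for all genes. In RS4:11 it was 0.08 at the EC50 and 0.09 at 3xEC50 for members, beside 0.15 at both doses for all genes. Both doses of a line share that line's vehicle arrays.

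**Figure D2:**
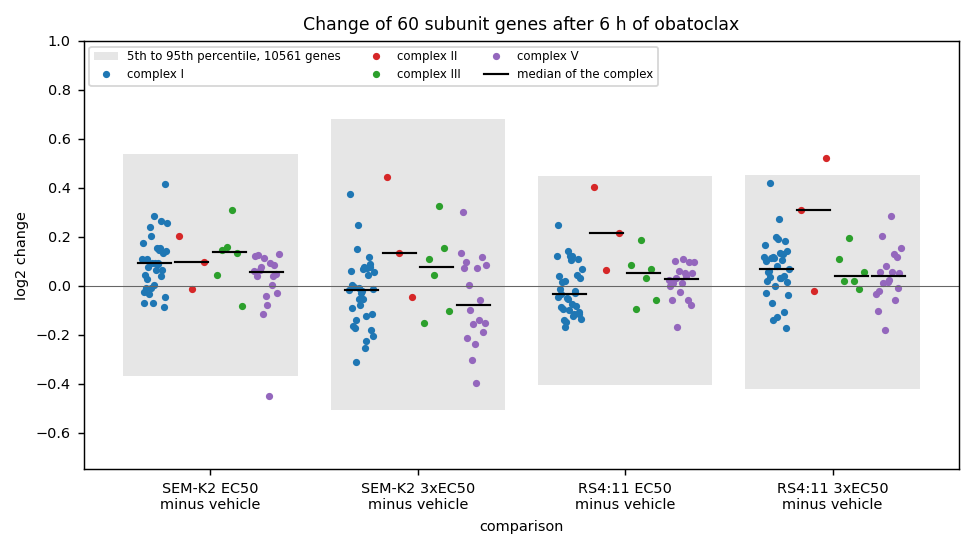
Points are log2 changes of the 60 members, coloured by complex, for each dose minus the vehicle of the same line. Black bars mark the median of a complex, and the grey band spans the 5th to the 95th percentile of all 10561 genes. The points outside the band are ATP5MF in SEM-K2 at the EC50, below it, and SDHD in RS4:11 at 3xEC50, above it.

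Complex II gave the highest medians by complex in RS4:11, though it holds 3 measured genes. Its median change in RS4:11 was 0.22 at the EC50 and 0.31 at 3xEC50, and in SEM-K2 0.10 at the EC50 and 0.13 at 3xEC50. Complex I had medians of 0.09 and -0.02 in SEM-K2 and of -0.04 and 0.07 in RS4:11 in the same dose order. Complex III had medians of 0.14 and 0.08 in SEM-K2 and of 0.05 and 0.04 in RS4:11. Complex V had medians of 0.05 and -0.08 in SEM-K2 and of 0.03 and 0.04 in RS4:11. The pooled SD of an array's median between replicates was 0.0999 for complex I, 0.073 for complex II, 0.112 for complex III and 0.0771 for complex V. The medians of complex II exceeded this spread at both doses in both lines. In size, so did those of complex III in SEM-K2 at the EC50 and of complex V in SEM-K2 at 3xEC50. This spread is about the standard error of a difference between groups of 2 arrays. Exceeding it does not set a complex apart from replicate noise. With 3 genes, each complex II median is also the value of a single gene. That gene was SDHD at the EC50 in both lines, SDHC in SEM-K2 at 3xEC50 and SDHA in RS4:11 at 3xEC50. For complex II the SD between replicates was larger in single RS4:11 groups, 0.117 with vehicle and 0.103 at the EC50.

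SDHA, the flavoprotein that oxidises succinate, was the member with the lowest p over both lines and doses. In SEM-K2 it measured 10.81 and 10.60 with vehicle, 11.00 and 10.82 at the EC50, and 11.10 and 11.20 at 3xEC50. In RS4:11 it measured 10.22 and 10.42 with vehicle, 10.63 and 10.82 at the EC50, and 10.58 and 10.68 at 3xEC50. All 4 obatoclax arrays of each line lay above both vehicle arrays of that line, although SEM-K2 EC50 replicate 2 was barely above vehicle replicate 1. No other member showed this in both lines. In SEM-K2 alone NDUFA10 and UQCRC2 showed it too. In RS4:11 alone NDUFA12, NDUFB11, NDUFB4, UQCRB, ATP5MJ and ATP5PO did, and NDUFS1 and ATP5MK showed the reverse. The share of all genes with this pattern was not counted, so it is not read as particular to SDHA. The estimated change of SDHA was 0.20 (SE 0.15) at the EC50 and 0.44 (SE 0.15) at 3xEC50 in SEM-K2. Without SEM-K2 vehicle replicate 2 the EC50 value was 0.10. In RS4:11 the change was 0.40 (SE 0.15) at the EC50 and 0.31 (SE 0.15) at 3xEC50. Over both lines and doses together, the difference of obatoclax from vehicle was 0.34 (SE 0.09, 95% interval 0.13 to 0.55). SDHA was not called there: its adjusted p in limma was 0.157, and 0.0733 with the replicate number as a block. In that pooled comparison 0 of 60 members were called in limma, 1 had an unadjusted p under 0.05, and 0.833% of all genes were called. With the replicate block 4.1% of all genes were called, and no member was. SDHA rests on a probe set of the _x_at class, whose probes can match other transcripts, and on no other.

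The 2 membrane anchors of complex II differed in their values on the probe sets that stood for them. SDHD in RS4:11 measured 11.62 and 11.24 with vehicle, 11.71 and 11.58 at the EC50, and 11.97 and 11.92 at 3xEC50. In SEM-K2 it measured 11.75 and 11.97 with vehicle, 11.88 and 12.03 at the EC50, and 11.79 and 11.83 at 3xEC50. The 3xEC50 arrays lay above the vehicle arrays in RS4:11 and between them in SEM-K2. The change at 3xEC50 was -0.05 (SE 0.16) in SEM-K2 and 0.52 (SE 0.16) in RS4:11, and neither was called. Without RS4:11 vehicle replicate 2 the change in RS4:11 was 0.33. The difference between the lines in this response was -0.57 (SE 0.23), with an unadjusted p of 0.0372 and an adjusted p of 0.9995 in limma. In that comparison of responses at 3xEC50, SEM-K2 minus RS4:11, 0 members were called and 1 had an unadjusted p under 0.05, against 0.0379% of all genes called. At the EC50, 0 members were called and 0 had an unadjusted p under 0.05, against 0.00947% of all genes. SDHC, the other anchor, had estimates between -0.02 and 0.13 over the 4 comparisons, with SE 0.20 in each. These estimates come from 1 _x_at probe set. In RS4:11 the other SDHC probe sets above the floor changed by 0.03 to 0.28 at the EC50 and by 0.07 to 0.38 at 3xEC50. In SEM-K2 they changed by 0.09 to 0.23 at the EC50 and by -0.22 to 0.16 at 3xEC50. The difference between the anchors thus depended on the probe set.

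In complex I, the highest estimate in SEM-K2 was NDUFS7, the subunit that carries the terminal iron-sulfur cluster, at the EC50 (0.41, SE 0.24) and NDUFA10, an accessory subunit of the membrane arm, at 3xEC50 (0.38, SE 0.24). Without SEM-K2 vehicle replicate 2 the value of NDUFS7 was 0.091. The lowest was NDUFS6, a zinc-binding accessory subunit, at the EC50 (-0.09, SE 0.26) and NDUFA7, an accessory subunit of the matrix arm, at 3xEC50 (-0.31, SE 0.23). In RS4:11 the highest was NDUFA10 at the EC50 (0.25, SE 0.24) and NDUFA5, an accessory subunit of the matrix arm, at 3xEC50 (0.42, SE 0.29), and the lowest was NDUFA8, another accessory subunit, at the EC50 (-0.17, SE 0.19) and NDUFS6 at 3xEC50 (-0.17, SE 0.26). Single RS4:11 arrays decided both highest values: NDUFA10 was -0.012 without EC50 replicate 2, and NDUFA5 was 0.0079 without vehicle replicate 2 and 0.83 without vehicle replicate 1. None of these was called.

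In complex III, UQCRC1, a core subunit, had the highest estimates in SEM-K2, 0.31 (SE 0.19) at the EC50 and 0.32 (SE 0.19) at 3xEC50. Without SEM-K2 vehicle replicate 2 these were 0.055 and 0.070. UQCRB, a small subunit of the complex, had the highest in RS4:11, 0.19 (SE 0.17) at the EC50 and 0.20 (SE 0.17) at 3xEC50, or 0.065 and 0.075 without RS4:11 vehicle replicate 2. The lowest estimates of this complex lay between -0.15 and -0.01 and belonged to UQCRQ and UQCR10 in SEM-K2 and to UQCR11 and UQCRC2 in RS4:11. In complex V the catalytic β subunit ATP5F1B had the highest estimate in SEM-K2 at 3xEC50 (0.30, SE 0.21), and ATP5PO, which joins the peripheral stalk to the catalytic head, at the EC50 (0.13, SE 0.15). ATP5MF, near the floor, had the lowest estimates in SEM-K2 (-0.45 at the EC50 and -0.40 at 3xEC50) and the highest in RS4:11 (0.11 and 0.29 at the same doses), with SE 0.31. ATP5MC1, a c-ring gene, had the lowest in RS4:11, -0.17 at the EC50 and -0.18 at 3xEC50, with SE 0.44. None of the members of complexes III and V was called.

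Several of these estimates rest on the SEM-K2 array with the high 3′ minus 5′ signals. ATP5F1B measured 12.73 and 13.31 in SEM-K2 at 3xEC50, against 12.78 and 12.66 with vehicle, and the replicate 2 array alone lay above the vehicle arrays. NDUFA7 measured 9.63 and 8.99 at 3xEC50, against 9.83 and 9.41 with vehicle. Without SEM-K2 3xEC50 replicate 2 the change was 0.01 for ATP5F1B and 0.01 for NDUFA7. NDUFA10 measured 9.81 and 10.43 at 3xEC50, against 9.80 and 9.70 with vehicle, and its change was 0.066 without that array. ATP5MC2, another c-ring gene, measured 13.61 and 12.87 at 3xEC50 in SEM-K2, against 13.68 and 13.40 with vehicle. SDHA kept a change of 0.39 without that array. The part of RNA quality in the other values of that array was not tested.

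The step between doses also gave no call. Comparing 3xEC50 with the EC50, 0 members were called in SEM-K2 and 0 in RS4:11 in limma, 0 had an unadjusted p under 0.05 in either line, and 0.0% of all genes were called in each. The members' median difference was -0.09 in SEM-K2, with 15 of 60 members above 0, and 0.04 in RS4:11, with 41 of 60 above 0. In SEM-K2 this median moved between -0.20 and 0.02 when single arrays were left out. Array by array, the members' median distance from their 12-array means was 0.02 and -0.14 with vehicle, -0.05 and 0.12 at the EC50, and -0.14 and 0.02 at 3xEC50 in SEM-K2. In RS4:11 it was -0.02 and 0.01 with vehicle, -0.03 and 0.06 at the EC50, and 0.03 and 0.06 at 3xEC50. The replicates of each SEM-K2 group thus lay farther apart than the means of any pair of SEM-K2 groups.

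More members were called between the cell lines than with obatoclax, but the differences were small. The counts differ in precision, as the lines were compared with 6 arrays each and a dose with 2 arrays a group. The median SE over members was 0.10 between the lines and 0.17 for a dose against vehicle. Averaged over the 3 treatments, 10 of 60 members (16.7%) were called, 5 higher and 5 lower in SEM-K2 than in RS4:11, while 41.1% of all genes tested were called, 23.3% higher and 17.8% lower. The median size of the line difference was 0.14 for members and 0.28 for all genes. The signed median was -0.05 for members and 0.04 for all genes. By complex, 5 of 33 members were called in complex I, 2 of 3 in complex II, 2 of 6 in complex III and 1 of 18 in complex V. With the replicate number as a block, 16 members were called, 6 higher and 10 lower, beside 49.6% of all genes, 28.2% higher and 21.4% lower. All 10 stayed among them, and ATP5MC1, NDUFB2, NDUFB5, NDUFS3, NDUFS6 and NDUFV1 were added.

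**Figure D3:**
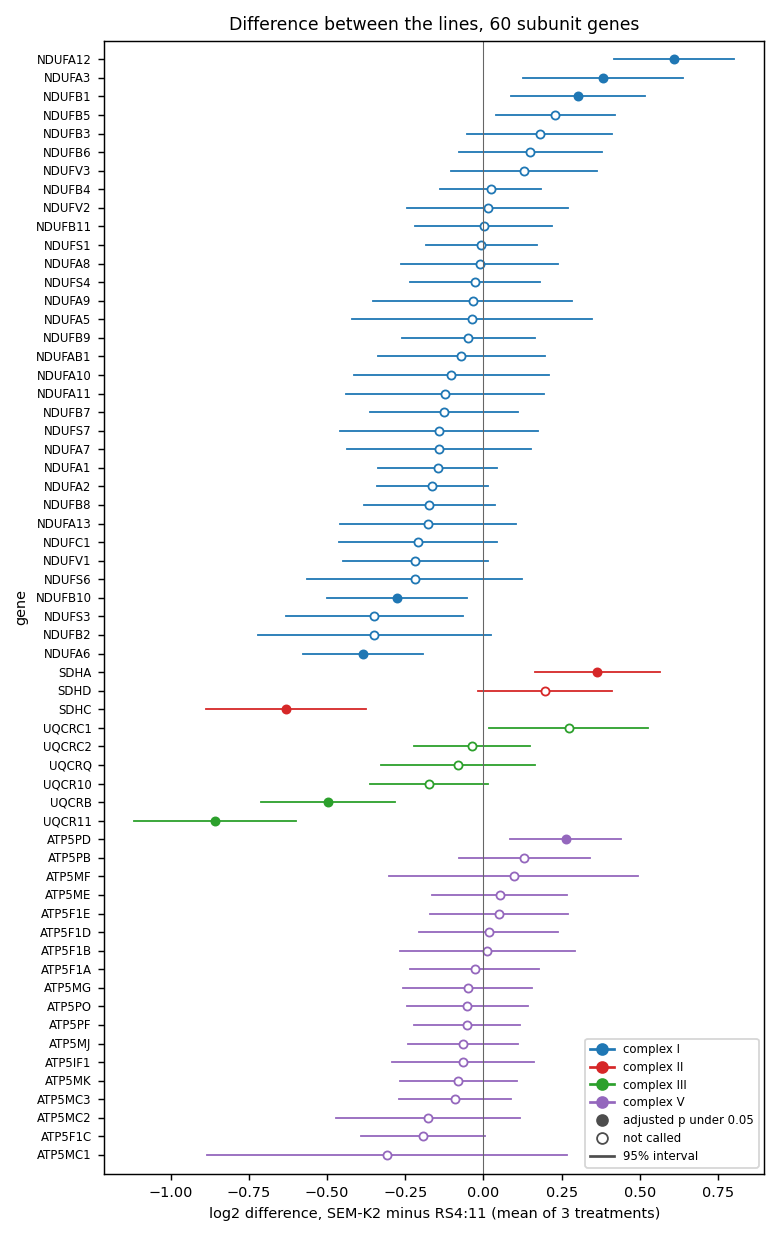
Points are the log2 differences SEM-K2 minus RS4:11, averaged over the 3 treatments, and bars are 95% intervals from limma, with filled points at an adjusted p under 0.05. In complex III the called members UQCR11 and UQCRB lie on the lower side, and in complex II SDHA and SDHC lie on opposite sides of 0.

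UQCR11, a small subunit of complex III, had the largest difference among members. It measured 11.21, 10.54, 10.97, 11.07, 10.94 and 11.02 in SEM-K2 and 11.88, 11.80, 11.75, 11.75, 11.88 and 11.84 in RS4:11, each in the order vehicle, EC50 and 3xEC50 with replicate 1 before replicate 2. The lines did not overlap, and SEM-K2 vehicle replicate 2 was the lowest array. The difference was -0.86 (SE 0.12, adjusted p 2.51e-04 in limma), 1.81-fold lower in SEM-K2. Its other probe set, with a difference of -1.03, lay on the same side.

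SDHC, the membrane anchor of complex II that helps to bind ubiquinone, was also lower in SEM-K2. It measured 9.54, 9.25, 9.32, 9.44, 9.30 and 9.76 in SEM-K2 and 9.95, 10.16, 10.03, 10.21, 9.91 and 10.16 in RS4:11, in the same order. The lines did not overlap, and the highest SEM-K2 array was 3xEC50 replicate 2. The difference was -0.63 (SE 0.11, adjusted p 0.00162 in limma). The 6 probe sets of SDHC above the floor had differences between -0.79 and -0.13, all on the same side.

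UQCRB measured 13.71, 13.32, 13.63, 13.70, 13.55 and 13.56 in SEM-K2 and 14.07, 13.83, 14.17, 14.10, 14.21 and 14.08 in RS4:11, without overlap. The difference was -0.50 (SE 0.10, adjusted p 0.00239 in limma). Of its other probe sets above the floor, 1 differed by -0.49 and 1 by 0.09. NDUFA6, an accessory subunit of complex I that binds the mitochondrial acyl carrier protein, measured 11.15 to 11.57 in SEM-K2 (median 11.48) and 11.70 to 11.88 in RS4:11 (median 11.84). Its difference was -0.38 (SE 0.08, adjusted p 0.00523), and its other probe set differed by -0.02. NDUFB10, an accessory subunit of the membrane arm, overlapped between the lines and had a difference of -0.28 (SE 0.10, adjusted p 0.0497), a call kept in 3 of 12 refits that each left out 1 array.

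NDUFA12, an accessory subunit of the arm of complex I that receives NADH, was the member highest in SEM-K2 relative to RS4:11. It measured 13.09, 12.98, 12.90, 13.12, 12.83 and 13.06 in SEM-K2 and 12.34, 12.34, 12.34, 12.42, 12.36 and 12.52 in RS4:11, in the order given above. The lines lay well apart, by more than the range within either. The difference was 0.61 (SE 0.09, adjusted p 3.37e-04 in limma), 1.53-fold higher in SEM-K2. SDHA was higher in SEM-K2 by 0.36 (SE 0.09, adjusted p 0.00888), although RS4:11 arrays with obatoclax reached the level of SEM-K2 arrays with vehicle.

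NDUFA3, an accessory subunit of the membrane arm, measured 10.88 to 11.39 in SEM-K2 and 10.47 to 10.81 in RS4:11, without overlap, a difference of 0.38 (SE 0.11, adjusted p 0.0233 in limma). ATP5PD, the d subunit of the peripheral stalk of complex V, measured 12.26 to 12.64 in SEM-K2 and 12.13 to 12.23 in RS4:11, a difference of 0.26 (SE 0.08, adjusted p 0.0238), and its other probe set differed by 0.03. NDUFB1, an accessory subunit of the membrane arm, overlapped between the lines and differed by 0.30 (SE 0.09, adjusted p 0.0289). These 3 calls were lost in some refits without 1 array: they were kept in 7 of 12 refits for NDUFA3, in 6 for ATP5PD and in 6 for NDUFB1. NDUFA12, NDUFA6, SDHA, SDHC, UQCR11 and UQCRB kept their calls in all 12 refits. With the probe sets of a gene averaged, the calls of NDUFA6, NDUFB1, NDUFB10, ATP5PD and UQCRB were lost, and ATP5IF1, ATP5MC3, NDUFB5, NDUFS3, NDUFV3 and UQCRC2 were called, which gave 11 called members, 7 higher and 4 lower.

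**Figure D4:**
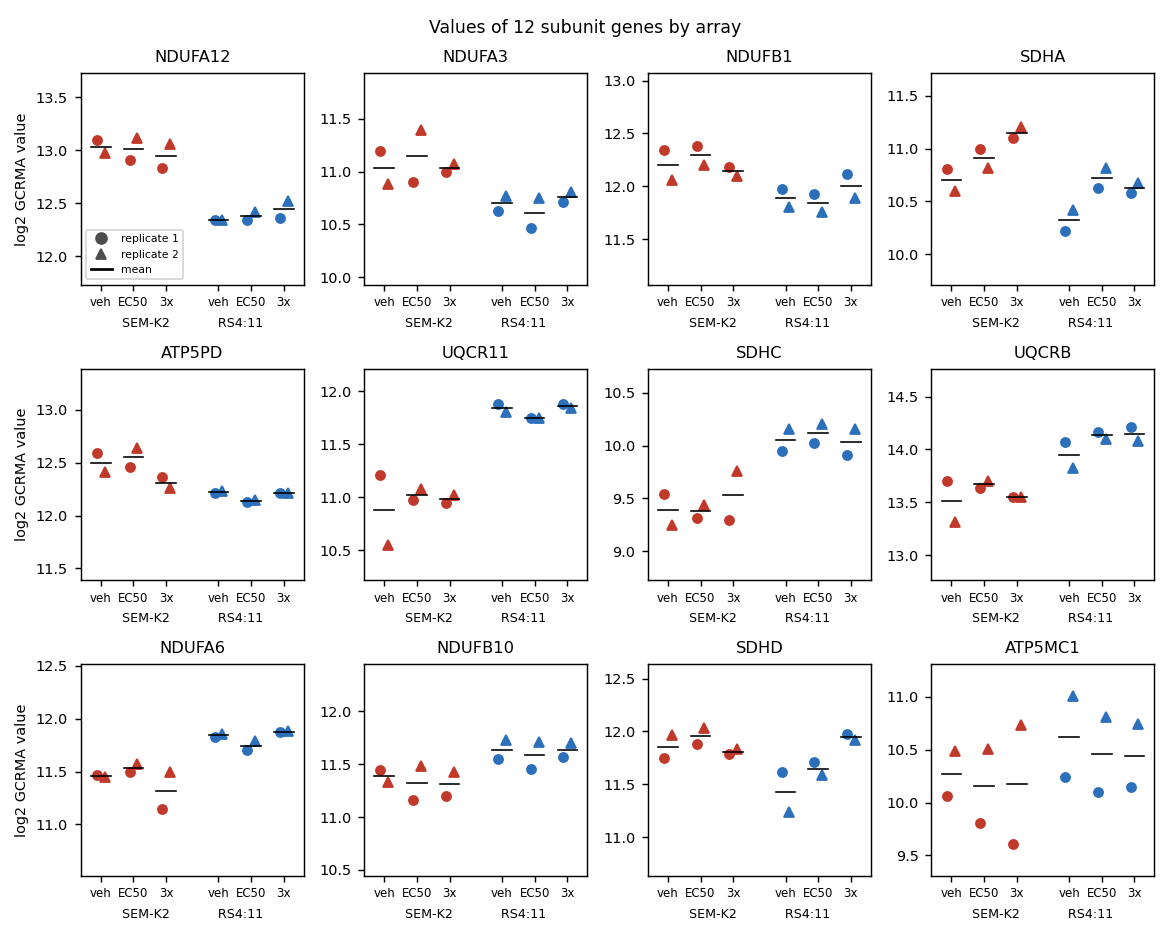
Panels show log2 values of 12 members on all 12 arrays, circles for replicate 1 and triangles for replicate 2, with SEM-K2 in red left of RS4:11 in blue, doses in the order vehicle (veh), EC50 and 3xEC50 (3x), and bars at group means. Each axis spans 2 units. UQCR11, SDHC, UQCRB and NDUFA12 separate the lines, SDHA lies higher with obatoclax than with vehicle in both lines, and ATP5MC1 separates the replicate numbers.

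The vehicle arrays alone gave 3 called members, 1 higher and 2 lower in SEM-K2, against 19.6% of all genes tested, 10.0% higher and 9.6% lower. NDUFA12 was higher by 0.69 (SE 0.15, adjusted p 0.00907 in limma). UQCR11 was lower, at -0.97 (SE 0.20, adjusted p 0.0076), and -0.63 without SEM-K2 vehicle replicate 2. SDHC was lower, at -0.66 (SE 0.20, adjusted p 0.0439), and lost its call in 10 of 12 refits without 1 array. Over all treatments, 8 members (13.3%) had no overlap between the 6 SEM-K2 and the 6 RS4:11 arrays, 3 on the higher side and 5 on the lower, beside 27.9% of all genes. They were NDUFA12, NDUFA3, ATP5PD, NDUFA6, SDHC, UQCR11, UQCRB and ATP5F1C, the γ subunit of the central stalk of complex V, whose difference of -0.19 (SE 0.09) was not called.

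Probe sets of 1 gene could disagree. Among 26 members with several probe sets above the floor, the median range of the line difference was 0.28. The widest ranges were -1.17 to -0.04 for UQCRC2, a core subunit of complex III, -0.10 to 1.00 for ATP5MC3, -0.07 to 0.89 for ATP5IF1, the inhibitor of ATP hydrolysis by complex V, -0.29 to 0.62 for NDUFB8 and -0.17 to 0.53 for UQCR10. In each of these 5 genes the probe set that stood for the gene had a difference between -0.17 and -0.04. ATP5MC1, ATP5MC2 and ATP5MC3 encode the same mature c subunit with different import sequences, and 0 of the 3 were called between the lines in limma.

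The replicate number was itself a source of spread in some members. In 6 of 60 members replicate 2 lay on the same side of replicate 1 in all 6 groups, 5 above and 1 below, beside 21.7% of all genes tested. ATP5MC1 showed it most, with 10.48 to 11.01 on the replicate 2 arrays and 9.61 to 10.24 on the replicate 1 arrays, a mean difference of 0.72. NDUFS6 measured 11.88 to 12.22 on the replicate 2 arrays and 11.33 to 11.80 on the replicate 1 arrays, a mean difference of 0.39. NDUFAB1, the acyl carrier protein (mean difference 0.27), NDUFB9 (0.16) and ATP5MC3 (0.11) were the others above, and NDUFB1 was below (-0.19). The labels do not say what a replicate number stands for. The median SD between replicates over the 60 members was 0.153, with a range of 0.035 for NDUFB4 to 0.53 for ATP5MC1. Over the 12 arrays NDUFB4, an accessory subunit of the membrane arm, lay between 12.93 and 13.15, and ATP5F1A, the catalytic α subunit, between 13.97 and 14.34. NDUFV3, an accessory subunit of the matrix arm, lay between 7.47 and 8.13.

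Other genes of the pathway were read from lists of 92 tested genes. In each comparison of a dose with vehicle, 0 of these were called in limma, with an unadjusted p under 0.05 for 1 in SEM-K2 at the EC50, 6 in SEM-K2 at 3xEC50, 3 in RS4:11 at the EC50 and 0 in RS4:11 at 3xEC50. With the replicate block, still 0 were called, but these counts were 2 and 10 in SEM-K2 and 6 and 7 in RS4:11 at the EC50 and at 3xEC50. Over both lines and doses, 0 were called without the block, and for 5 the unadjusted p lay below 0.05. The blocked fit called 1 of the 92, IDH3A, a citric acid cycle enzyme subunit, which was lower with obatoclax. That fit called 4.1% of all genes tested, so the IDH3A call does not set these lists apart from the background. Without the block, 0.833% of all genes were called over both lines and doses. The single doses against vehicle gave 0.0% to 0.824%. Between the lines over treatments, 20 of the 92 were called, against 41.1% of all genes tested. These included 2 of 11 complex IV subunits, both lower in SEM-K2: COX6C by -0.59 and COX6A1 by -0.30. Of 7 mitochondrially encoded subunits, 0 were called in limma. Of 14 complex I assembly factors, ACAD9 (0.31) and NDUFAF4 (0.28) were higher and NDUFAF6 (-0.78) was lower. Of 13 assembly factors of complexes II, III and V, SDHAF3 (0.51) and TTC19 (0.39) were higher, and ATPAF1 (-2.40) and TMEM70 (-0.72), which help to build complex V, were lower. The difference of ATPAF1 had an SE of 0.11, and it measured 7.47 to 8.14 in SEM-K2 and 9.93 to 10.30 in RS4:11, far apart.

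Of 17 genes for electron carriers and ubiquinone synthesis, CYCS (0.56), which encodes cytochrome c, and the ubiquinone synthesis genes COQ3 (2.17) and COQ2 (0.65) were higher in SEM-K2, and COQ10A (-0.41) was lower. COQ3 measured 7.87 to 8.55 in SEM-K2 and 5.66 to 6.25 in RS4:11, without overlap. Of 15 citric acid cycle genes, IDH3B (0.66) and DLST (0.46) were higher and SUCLA2 (-0.88) and MDH2 (-0.33) lower. Of 15 regulators, TWNK (-1.25), the helicase of mitochondrial DNA, GABPB1 (-0.42) and GABPA (-0.25) were lower. These 2 GABP genes encode subunits of an ETS family factor that binds promoters of respiratory chain genes. With the replicate block, 7 of 17 genes of the carrier list and 5 of 15 regulators were called, in place of 4 and 3. Among all genes tested the share rose from 41.1% to 49.6%, so both lists stayed below it.

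Promoters of members whose levels differed between the lines are shown because SDHA, NDUFA12, NDUFA3 and UQCR11 all hold the motif of NRF1, a factor known to bind promoters of respiratory chain genes. They are the 200 bases before the RefSeq transcription start in GRCh38.p14, 5′ to 3′ on the strand of the gene, with matches in capitals. The motif searched was GCGCA and GCGC with any base between them, on either strand. The SDHA stretch is chr5:218120-218319 on the plus strand, that of NDUFA12 chr12:95003698-95003897 on the minus strand, that of NDUFA3 chr19:54102655-54102854 on the plus strand, and that of UQCR11 chr19:1605463-1605662 on the minus strand.
SDHA: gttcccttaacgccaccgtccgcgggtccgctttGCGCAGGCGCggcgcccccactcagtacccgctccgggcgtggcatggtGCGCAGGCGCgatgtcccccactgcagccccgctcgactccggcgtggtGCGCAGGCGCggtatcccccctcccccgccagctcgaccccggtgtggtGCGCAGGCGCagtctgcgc
NDUFA12: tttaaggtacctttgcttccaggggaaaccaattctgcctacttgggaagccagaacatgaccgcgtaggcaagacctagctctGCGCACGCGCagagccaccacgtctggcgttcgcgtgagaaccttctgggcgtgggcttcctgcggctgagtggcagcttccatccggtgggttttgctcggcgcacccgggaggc
NDUFA3: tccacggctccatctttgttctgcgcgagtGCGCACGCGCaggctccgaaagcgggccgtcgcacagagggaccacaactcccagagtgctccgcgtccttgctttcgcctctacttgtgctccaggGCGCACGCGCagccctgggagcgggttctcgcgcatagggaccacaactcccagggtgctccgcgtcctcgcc
UQCR11: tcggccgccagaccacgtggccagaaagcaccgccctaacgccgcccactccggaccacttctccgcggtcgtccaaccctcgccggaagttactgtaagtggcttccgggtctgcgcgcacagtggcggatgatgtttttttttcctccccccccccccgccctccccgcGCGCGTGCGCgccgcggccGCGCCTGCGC

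The SDHA promoter held 4 matches, each starting 49 bases after the one before. Neighbouring 49-base stretches that begin at a match were identical at 28, 37 and 22 of 49 positions. Each of these counts includes the bases of the match itself, which were identical by the choice of stretches. The last stretch runs past the transcription start, beyond the bases shown. The identity expected without a repeat was not computed, so the counts are not read as showing one. NDUFA12 held 1 match, NDUFA3 held 2, and UQCR11 held 2 in the opposite orientation. In the window of 250 bases before to 50 after the start, 15 of 63 member promoters (23.8%), from 15 of the 52 members with an entry, held this motif on either strand, compared with 5.78% of all 35116 promoters. The ETS core CCGGAAG was found in 15 of 63 member promoters (23.8%) and in 10.3% of all promoters. The YY1 motif AAGATGGCG was found in 9 of 63 member promoters (14.3%) and in 1.75% of all. These counts include several promoters of 1 gene. Overlaps between motifs were not removed.

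Of the 10 members called between the lines, 8 had a promoter entry. The NRF1 motif was found in 4 of these 8 and in 11 of the 44 members with an entry that were not called. The ETS core was found in 2 of the 8, ATP5PD and UQCR11, and in 12 of the 44. The YY1 motif was found in 1 of the 8, NDUFA6, and in 7 of the 44. The matches stood in genes on both sides of the line difference: SDHA, NDUFA12 and NDUFA3 were higher in SEM-K2, and UQCR11 was lower.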

How the data were processed

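RNA of 12 samples was measured on Affymetrix U133 Plus 2 arrays, with total RNA extracted by TRIzol, per the labels' protocols. The authors deposited GCRMA values, as the submitters' processing notes state without a version or a scale. The deposited values span 0.64 to 16.2, with array medians of 3.13 to 3.16, and were taken as log2. Arrays give no depth, and their number limits the precision.

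The platform annotation gave 1 gene symbol to 41091 of the 54675 probe sets and several to 1801, which stayed unnamed. Members with an _x_at probe set numbered 5 and with an _s_at probe set 32, whose probes can match other transcripts. The genes left out were 12 assembly factors, 1 pseudogene and 3 whose symbol holds a hyphen, such as antisense, divergent or read-through transcripts. Genes were tested where the probe set exceeded 4 in at least 2 of 12 arrays.

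Tests used limma 3.58.1 (lmFit, eBayes; R 4.3.3) on 1 model of the 6 groups, which left 6 residual degrees of freedom beside 3.27 prior ones, and Benjamini-Hochberg adjustment over all genes within a comparison. The script was tested on simulated data. For SEM-K2 at 3xEC50 against vehicle, over all genes tested, 54% of simulated log2 changes of 1 and 90% of those of 2 were called. There were 8 false calls. The simulated noise was independent between arrays, unlike that of the data, and no change smaller than 1 was simulated. These figures thus do not cover changes of the size estimated for the members. Deviations from group means correlated at 0.191 to 0.601 between same-numbered arrays in all 15 pairs of groups, each over 0.1. The replicate numbers may thus pair the samples. This pairing comes from the data, not from the labels. The main tests ignored it and had no replicate term. Fits with the replicate number as a block were run as alternatives. With the block, calls among all genes for obatoclax over lines and doses rose from 0.833% to 4.1%.

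Alternatives were the replicate block over both lines or within each line, each array left out, averaged probe sets, no _x_at probe sets, no floor or a floor of 6, eBayes with trend and robust settings, array weights, the compared arrays alone, and median-centred arrays. Genes were named by rule: every called member, the highest and lowest change by complex in each comparison of a dose with vehicle, the highest and lowest 12-array mean by complex, all of complex II, the 5 members whose probe sets disagreed most, and paralogs of 1 subunit. From the other lists, called genes were named. ATP5F1C, IDH3A, the array values of NDUFA7, NDUFA10, ATP5F1B and ATP5MC2, and members that differed by replicate or were added by the block were chosen after their values were seen. Promoters came from RefSeq, GRCh38.p14. The members and lists were chosen with earlier results of these data known.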

Additional observations from a re-analysis of the deposited data

How the results depend on the processing

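No obatoclax comparison gained a called member under any alternative run. With the replicate block, SEM-K2 against RS4:11 over treatments gave 16 called members in place of 10, and the block changed no other member count by over 1.5 times; blocked within each line it gave 9: ATP5PD, NDUFA3 and NDUFB10 were lost, NDUFB8 and NDUFC1 were gained, and none of the 6 members that the block over both lines added was called. Blocked in this way between the vehicles, the comparison lost SDHC and gained SDHA. Over treatments, leaving out single arrays gave 6 to 11, the 6 without SEM-K2 vehicle replicate 1. Fitted on the vehicle arrays alone, the comparison of the lines gave 0 called members in limma in place of 3.

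Medians over the members ranged, when single arrays were left out, from -0.092 to 0.073 in SEM-K2 at 3xEC50, from -0.011 to 0.15 at the EC50, from -0.20 to 0.020 for 3xEC50 minus EC50, from -0.14 to 0.013 between the vehicles of the lines and from -0.030 to 0.082 for obatoclax over lines and doses. The group level of complex II ranged from -0.13 to -0.011 with SEM-K2 vehicle, from -0.37 to -0.20 with RS4:11 vehicle and from -0.082 to 0.071 at the RS4:11 EC50. Without _x_at probe sets, which removes SDHA, it was -0.013 at the EC50 and -0.090 at 3xEC50 in SEM-K2, and -0.14 with vehicle and 0.28 at 3xEC50 in RS4:11.

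Changes that were not called turned sign in some settings. With single arrays left out, the range in SEM-K2 at 3xEC50 was -0.63 to 0.0076 for NDUFA7 and -0.16 to 0.064 for SDHD. In SEM-K2 at the EC50 it was -0.012 to 0.27 for ATP5PO, -0.33 to 0.15 for NDUFS6, -0.16 to 0.13 for SDHC and -0.32 to 0.15 for UQCRQ. In RS4:11 at 3xEC50 it was -0.56 to 0.20 for ATP5MC1, -0.38 to 0.039 for NDUFS6, -0.15 to 0.10 for SDHC and -0.11 to 0.086 for UQCRC2. In RS4:11 at the EC50 it was -0.55 to 0.21 for ATP5MC1, -0.33 to 0.55 for ATP5MF, -0.012 to 0.51 for NDUFA10 and -0.039 to 0.17 for SDHC. With the mean of probe sets, SDHC was 0.094 in SEM-K2 at the EC50 and 0.17 in RS4:11 at 3xEC50, and NDUFA5 was -0.18 in RS4:11 at 3xEC50. Without _x_at probe sets SDHC was 0.11 and 0.33 in the same comparisons. The cause was not tested.

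With 2 arrays a group, changes smaller than about the 95% intervals could not be told from 0, and array signals give no count of transcripts.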
